A study of Mus musculus with 8 samples.

Results

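The genes described here are the urea cycle enzymes Nags, Cps1, Otc, Ass1, Asl and Arg1, the second arginase Arg2, glutamine synthetase Glul and the liver-type glutaminase Gls2. They were taken by symbol, and all 9 were found among the 27179 genes of the table. Total RNA was sequenced from mouse liver, kidney, brain and heart, with 1 library from formalin-fixed, paraffin-embedded (FFPE) tissue and 1 from flash-frozen tissue of each organ, 8 libraries in all. Wax was removed from the FFPE tissue, RNA was taken up in Trizol and sheared by ultrasound. The labels state neither strain, sex and age nor how many animals stand behind a library, so the p-values rest on the spread between these libraries. In bulk tissue, fewer cells of a type and less RNA per cell cannot be told apart.

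The urea cycle turns toxic ammonia into urea. In hepatocytes of the periportal zone, N-acetylglutamate made by NAGS switches on CPS1, which joins ammonia and bicarbonate in the mitochondrion. OTC then makes citrulline, ASS1 and ASL build arginine in the cytosol, and ARG1 splits it into urea and ornithine. Kidney proximal tubule uses ASS1 and ASL to make arginine from circulating citrulline, and ARG2 is the mitochondrial arginase of tissues outside the liver. Glutamine synthetase, which stores ammonia as glutamine, marks pericentral hepatocytes in liver and astrocytes in brain. Glutaminases release that ammonia again, and GLS2 is the form known from liver.

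Assigned reads numbered 10180972 to 20526813 per library. Levels are in counts per 1e+06 reads (CPM) on the deposited scale, where 3 reads equal between 0.119 CPM (frozen brain) and 0.292 CPM (frozen heart). The markers of the main cell types were highest in the organs of their labels. The 6 hepatocyte markers summed to 50338 CPM in FFPE liver and 54876 CPM in frozen liver, and to at most 334 CPM elsewhere. The 6 proximal tubule markers summed to 7025 CPM in FFPE kidney and 10510 CPM in frozen kidney, and to at most 11.5 CPM elsewhere. Neuron markers reached 1525 CPM in FFPE brain and 1133 CPM in frozen brain, and cardiomyocyte markers 24226 CPM in FFPE heart and 29027 CPM in frozen heart. The 6 astrocyte markers did not sum highest in brain, with 909 and 979 CPM in FFPE and frozen liver against 267 and 290 CPM in FFPE and frozen brain. Aldh1l1, a folate enzyme also known from hepatocytes, gave 899 and 972 CPM of the liver sums. The sums were 249 and 368 CPM in FFPE and frozen heart. Gja1 gave 242 and 363 CPM of these, against 81.1 and 104 CPM in FFPE and frozen brain. Aqp4 had 66.1 CPM in FFPE kidney, between frozen brain at 42.8 CPM and FFPE brain at 88.3 CPM. Gfap, Mlc1 and Gjb6 were highest in brain, with Gfap at 38.8 and 36.9 CPM in FFPE and frozen brain and at most 0.531 CPM elsewhere.

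RefSeq (GRCm38.p6) gave the sequence before the first transcribed base for Otc, Ass1, Nags and Glul. These 4 are shown because no window was at hand for the other genes, and they were not picked by their levels. Otc and Nags were read almost entirely in liver, Ass1 mostly in liver and kidney, and Glul in every organ. A link between sequence and level was not tested. Capitals mark matches on either strand to the GC box GGGCGG or to CCAAT. The windows are chrX:10252055-10252229 for Otc, chr2:31470020-31470206 for Ass1, chr11:102145263-102145512 for Nags and chr1:153899679-153899928 for Glul, all on the plus strand. RefSeq starts differ from the GENCODE gene starts given further on for Otc, Ass1 and Glul, and the Ass1 window was ended at the earlier GENCODE start.
Otc: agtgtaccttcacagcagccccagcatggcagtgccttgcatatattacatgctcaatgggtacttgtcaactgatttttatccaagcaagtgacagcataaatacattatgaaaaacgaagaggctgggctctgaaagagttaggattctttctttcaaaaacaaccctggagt
Ass1: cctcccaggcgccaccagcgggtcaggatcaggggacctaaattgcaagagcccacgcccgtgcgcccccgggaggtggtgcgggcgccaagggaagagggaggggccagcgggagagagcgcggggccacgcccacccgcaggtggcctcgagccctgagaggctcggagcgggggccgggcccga
Nags: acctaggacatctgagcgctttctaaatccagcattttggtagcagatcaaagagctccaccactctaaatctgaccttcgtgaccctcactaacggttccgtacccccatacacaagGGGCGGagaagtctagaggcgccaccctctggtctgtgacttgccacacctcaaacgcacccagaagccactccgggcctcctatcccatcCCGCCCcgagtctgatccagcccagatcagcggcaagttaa
Glul: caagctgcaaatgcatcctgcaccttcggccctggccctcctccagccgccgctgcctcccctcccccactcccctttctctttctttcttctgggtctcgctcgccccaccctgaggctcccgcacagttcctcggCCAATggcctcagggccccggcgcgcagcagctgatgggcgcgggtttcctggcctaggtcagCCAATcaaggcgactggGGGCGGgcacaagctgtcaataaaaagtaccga
The Otc window spans 175 bases with 41.7% G or C and 1 CpG, against a median of 52.4% and 6 CpG over 32851 mouse windows of 250 bases. The Ass1 window spans 187 bases with 75.4% G or C and 18 CpG. The windows of Nags and Glul span 250 bases, with 55.6% and 11 CpG before Nags, and 64.8% and 15 CpG before Glul. A GC box occurred in 32.7% of all windows. It was found 2 times before Nags and 1 time before Glul. CCAAT occurred in 33.8% of all windows and was found 2 times before Glul. None of the 4 windows held TATAAA (12.4% of all windows), TTGCNNAA (9.56%) or CAAAGTCCA (0.384%), searched on both strands without overlap between the motifs, and this says nothing of the factors that bind there.

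The 6 urea cycle genes, Nags, Cps1, Otc, Ass1, Asl and Arg1, together took 0.572% of assigned reads in FFPE liver and 0.532% in frozen liver. In kidney they took 0.0421% and 0.0539% of the FFPE and frozen reads, in brain 0.00149% and 0.00318%, and in heart 0.000278% and 0.000141%. Cps1 alone held 62.5% of these reads in FFPE liver and 64.8% in frozen liver. Of the 9 genes, 8 were higher and 1 was lower in liver than in kidney (limma, Benjamini-Hochberg adjusted p under 0.05), where 18% and 23.2% of the 15819 tested genes were called in those directions. Against brain, 7 were higher in liver and 1 lower, with 30.8% and 36.3% of all tested genes. Against heart, 8 were higher and 0 lower at adjusted or unadjusted p under 0.05, and 0 by voom too, with 25.6% and 27.5% of all tested genes. The median log2 difference of the 9 genes was 7.19 for liver minus brain, beside -0.11 over all genes. For liver minus kidney it was 8.83 with Nags, which had no kidney read, set at its bound, or 10.42 as fitted, beside -0.08.

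**Figure D1:**
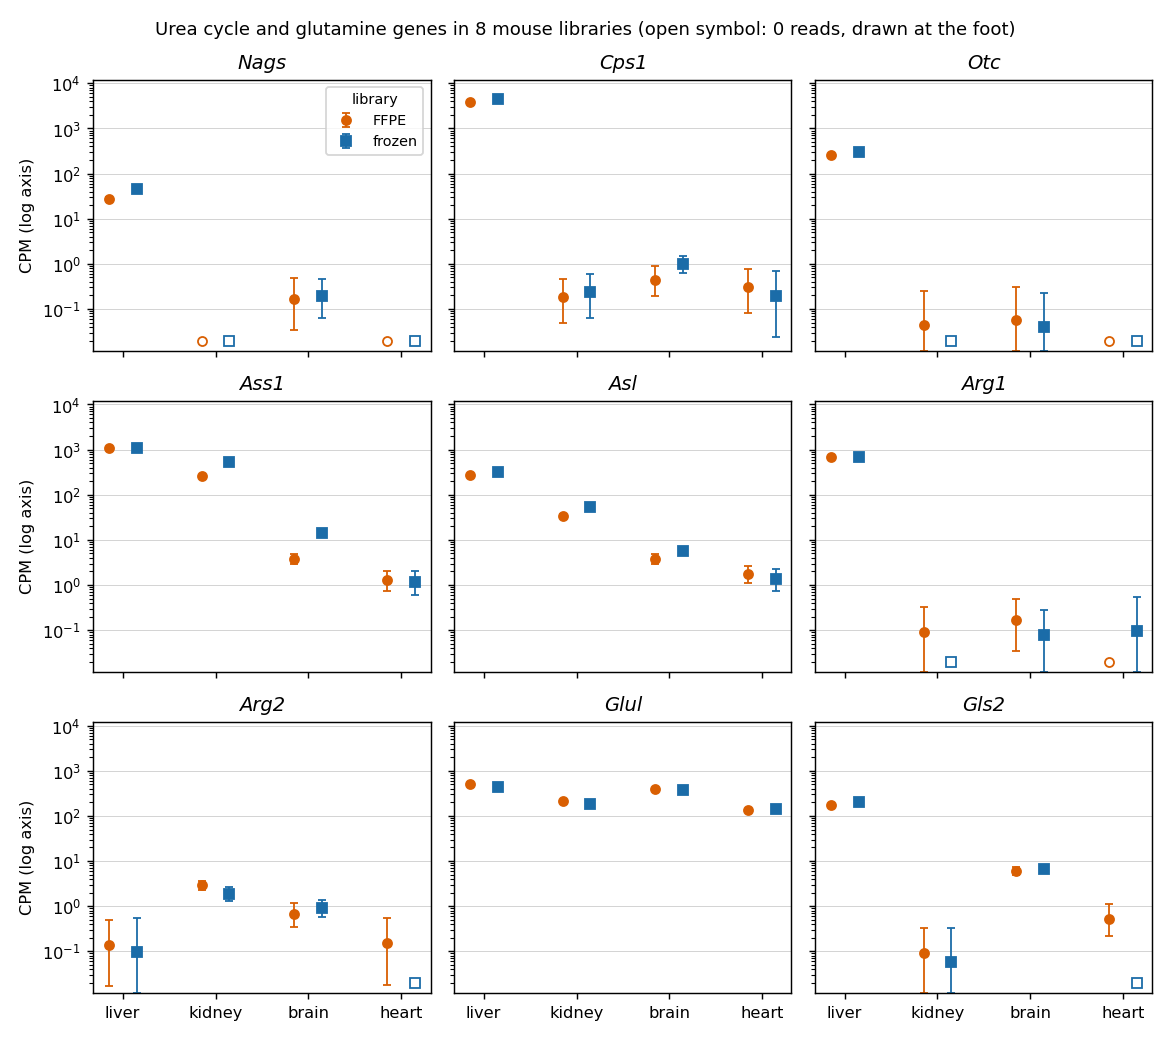
Levels of the 9 genes in CPM (log axis) in liver, kidney, brain and heart, with circles for the FFPE library and squares for the frozen library. Bars are exact 95% Poisson intervals and cover counting error only, and open symbols at the foot mark 0 reads. Nags, Cps1, Otc and Arg1 stand high in liver alone, Ass1 and Asl step down from liver through kidney and brain to heart, and Glul stays between 138 and 518 CPM in every library.

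Cps1 makes carbamoyl phosphate, the first committed step of the cycle (chromosome 1, 67123026 to 67231259, plus strand, on GRCm38 as are all gene positions here). It had 3850 CPM in FFPE liver and 4536 CPM in frozen liver. Kidney had 4 reads in each library (0.181 and 0.234 CPM), FFPE brain 8 and frozen brain 25 (0.447 and 0.991 CPM), and heart 4 and 2. Both liver libraries stood far above all others, and the remaining 6 libraries held between 2 and 25 reads. The liver to kidney ratio of summed reads was 20246, with a 95% interval of 10275 to 46896 from counting error alone. The log2 difference was 14.14 ± 0.42 (SE, adjusted p = 6.54e-07), and 12.56 ± 0.42 against brain (adjusted p = 2.03e-07). The kidney level was below the brain level by the same test (log2 difference -1.58 ± 0.42, adjusted p = 0.0113), but the call was lost under quantile normalization, under log2(CPM + 5) and without frozen brain. Brain exceeded heart by 1.26 ± 0.42 (adjusted p = 0.0297), a call lost under 8 of 17 alternatives, whose adjusted p spanned 0.000391 to 0.603. Hepatocyte markers summed to 64.2 CPM in FFPE brain, where Serpina1c and Tat had no read. They summed to 14.2 CPM in frozen brain, where all 6 had reads. Which markers made up these sums is not given here, and their part in the few brain reads of Cps1 was not tested.

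Nags makes the activator of CPS1 (chromosome 11, 102145513 to 102149477, plus strand). It had 401 and 468 reads in FFPE and frozen liver (27.6 and 44.9 CPM), 3 and 5 reads in FFPE and frozen brain, and no read in kidney or heart. The liver level was at least 455-fold higher than in kidney and at least 272-fold higher than in heart, with 3 reads over the organ as the floor, and 188 times that in brain (95% counting interval 94.9 to 437). Adjusted p of the log2 differences was 8.97e-06 against kidney, 1.80e-05 against brain and 6.06e-06 against heart. Of its 2838 exon bases, 443 overlap an antisense transcript, Gm11586, and the notes on counting name no strand setting. Reads within that overlap therefore cannot be told apart. Per kilobase of transcript Nags was the lowest cycle gene in liver, with 17.9 ± 6.0 CPM per kb (SD, n = 2 libraries).

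Otc joins carbamoyl phosphate to ornithine (chromosome X, 10252305 to 10321024, plus strand). It had 3685 and 3110 reads in FFPE and frozen liver (254 and 299 CPM). FFPE kidney, FFPE brain and frozen brain had 1 read each, and frozen kidney and both heart libraries had none. The level in liver was 5877 times that in brain (95% counting interval 1626 to 48540) and at least 2130-fold higher than in heart. Adjusted p of the log2 differences was 4.83e-06 against kidney, 1.60e-06 against brain and 1.81e-06 against heart.

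Ass1 joins citrulline and aspartate (chromosome 2, 31470207 to 31520672, plus strand), and its levels stepped down organ by organ. It had 1064 CPM in FFPE liver and 1106 CPM in frozen liver, 263 and 537 CPM in FFPE and frozen kidney, 3.85 and 14.1 CPM in FFPE and frozen brain, and 1.29 and 1.17 CPM in FFPE and frozen heart. The 4 organs did not overlap in any pair. Kidney exceeded brain by 5.66 ± 0.42 on the log2 scale (SE, adjusted p = 1.27e-05), and brain exceeded heart by 2.54 ± 0.42 (adjusted p = 0.000878). Liver exceeded kidney by 1.53 ± 0.42 (adjusted p = 0.0176). That last call was lost without FFPE kidney (1.31, adjusted p = 0.127), frozen kidney (1.75, 0.0551) or FFPE liver (1.09, 0.138), without the mean-variance trend (adjusted p = 0.0845) and under quantile normalization (0.39, adjusted p = 0.546).

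Asl splits argininosuccinate into arginine and fumarate (chromosome 5, 130011258 to 130029247, minus strand). It had 281 and 318 CPM in FFPE and frozen liver, 34.6 and 53.1 CPM in kidney, 3.80 and 5.79 CPM in brain, and 1.74 and 1.36 CPM in heart, the FFPE value first each time. Its organs were ordered as for Ass1, again without overlap. The log2 difference was 2.80 ± 0.26 for liver minus kidney (adjusted p = 5.26e-05), 3.19 ± 0.26 for kidney minus brain (1.83e-05) and 1.57 ± 0.26 for brain minus heart (0.000845). None of these calls was lost under any of the 17 alternatives.

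Ass1 has a processed pseudogene, Gm5424 on chromosome 10, that matches its transcript at 99.5% of 1240 aligned bases with 6 mismatches. A stretch with 2 of the 6 is shown, since reads this alike can be assigned to either gene. Capitals mark the bases that differ, at bases 542 to 631 of the Ass1 transcript and 340 to 429 of Gm5424.
Ass1: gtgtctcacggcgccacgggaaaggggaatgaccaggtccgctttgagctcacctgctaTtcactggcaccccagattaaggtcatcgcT
Gm5424: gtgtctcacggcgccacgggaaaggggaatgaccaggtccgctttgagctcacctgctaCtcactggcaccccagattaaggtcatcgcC
Gm5424 held between 28.5% (frozen kidney) and 39.3% (FFPE heart) of the reads of both genes. It was also the gene whose pattern over the 8 libraries was nearest to that of Ass1. How reads were split between both genes was not tested, so the Ass1 level is uncertain. With the reads of both summed, a choice made after this likeness was seen, liver minus kidney was 1.56 (adjusted p = 0.0148), and no call of Ass1 changed.

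Arg1 releases urea from arginine (chromosome 10, 24915221 to 24927484, minus strand). It had 682 CPM in FFPE liver (9901 reads) and 698 CPM in frozen liver (7267 reads). FFPE kidney had 2 reads and frozen kidney none, FFPE and frozen brain 3 and 2, and frozen heart 1. The liver level was 13482 times that in kidney, with a 95% counting interval of 3732 to 111332, and 5940 times that in brain (2545 to 18295). Adjusted p was 9.95e-06 against kidney and 5.36e-06 against brain.

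Arg2, the mitochondrial arginase, was highest in kidney and lowest in liver and heart (chromosome 12, 79130777 to 79156301, plus strand). It had 2 reads in FFPE liver and 1 in frozen liver, 64 and 32 in FFPE and frozen kidney (2.90 and 1.87 CPM), 12 and 23 in FFPE and frozen brain (0.670 and 0.912 CPM), and 2 and 0 in heart. The kidney libraries were above all others, and both brain libraries lay above liver and heart. The ratio of summed reads, liver over kidney, was 0.0491 (95% counting interval 0.00995 to 0.148), with adjusted p = 0.00333 for the difference. Kidney minus brain was 1.55 ± 0.75 on the log2 scale (adjusted p = 0.113) and was called under quantile normalization (2.23, adjusted p = 0.0386), log2(CPM + 5) (0.35, 0.00737) and voom (1.59, 0.0247). The lower level in liver than in brain (adjusted p = 0.0221) was no longer called without frozen brain (adjusted p = 0.157), FFPE liver (0.113) or frozen liver (0.0597), without the filter on low values (0.0600), under quantile normalization (0.371) or under log2(CPM + 5) (0.0872). Of its 1428 exon bases, 285 overlap Vti1b and 116 overlap Gm48780 on the other strand, and reads within these overlaps cannot be told apart. Per length, Arg1 held 99.98% and 99.99% of both arginases in FFPE and frozen liver, 2.93% and 0% in FFPE and frozen kidney, and 19.5% and 7.76% in FFPE and frozen brain.

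Glul makes glutamine from glutamate and ammonia (chromosome 1, 153899944 to 153909723, plus strand). It had 518 and 440 CPM in FFPE and frozen liver, 215 and 180 CPM in kidney, 387 and 383 CPM in brain, and 138 and 144 CPM in heart, the FFPE value first each time. All 8 libraries held at least 1473 reads of it, and on this scale the organs did not overlap. Liver exceeded kidney by 1.28 ± 0.16 on the log2 scale (SE, adjusted p = 0.000337), a call lost under quantile normalization (0.33, adjusted p = 0.219). Kidney was below brain by the same test (log2 difference -0.97 ± 0.16, adjusted p = 0.00100), and brain exceeded heart by 1.45 ± 0.16 (adjusted p = 0.000110). Kidney minus heart was 0.49 ± 0.16 (adjusted p = 0.0417), a call lost without the filter on low values (adjusted p = 0.0700), without the trend (0.125), under median centring (0.152) and without any 1 of 7 libraries, frozen heart being the exception.

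The place of liver against brain depended on the scaling of the libraries. On the deposited scale liver minus brain was 0.31 ± 0.16 (adjusted p = 0.124). Without the deposited scaling factors, which run from 0.50 in frozen heart to 1.76 in FFPE brain, it was -0.64 (adjusted p = 0.0280), under quantile normalization -0.93 (adjusted p = 0.00361), and under median centring 0.57 (adjusted p = 0.0142). Removing the factors also moved the median over all genes to -1.06, against -0.11 on the deposited scale. Relative to that median Glul stood 0.42 higher in liver on both scales. This equality holds by arithmetic, since the factors shift all genes of a library alike, and says nothing of how firm the value is. In unscaled CPM Glul had 481 and 334 in FFPE and frozen liver, and 680 and 575 in FFPE and frozen brain. A processed pseudogene on chromosome 11, Glns-ps1, matches the Glul transcript at 96.8% of 1126 aligned bases and was not analysed here, and 116 exon bases of Glul overlap Teddm2 on the other strand.

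Gls2 was high in liver, present in brain and near the floor elsewhere (chromosome 10, 128194457 to 128210004, plus strand). It had 176 and 202 CPM in FFPE and frozen liver (2561 and 2101 reads), 2 reads and 1 read in FFPE and frozen kidney, 6.09 and 6.58 CPM in FFPE and frozen brain (109 and 166 reads), and 7 and 0 reads in FFPE and frozen heart. The liver level was 29.3 times that in brain (95% counting interval 26.0 to 33.2), with a log2 difference of 4.89 ± 0.85 (SE, adjusted p = 0.000931). Brain stood 21.4 times above heart (10.2 to 53.6), with adjusted p = 0.000844. The ratio of kidney over brain was 0.0120 (0.00246 to 0.0355), with adjusted p = 0.000391.

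**Figure D2:**
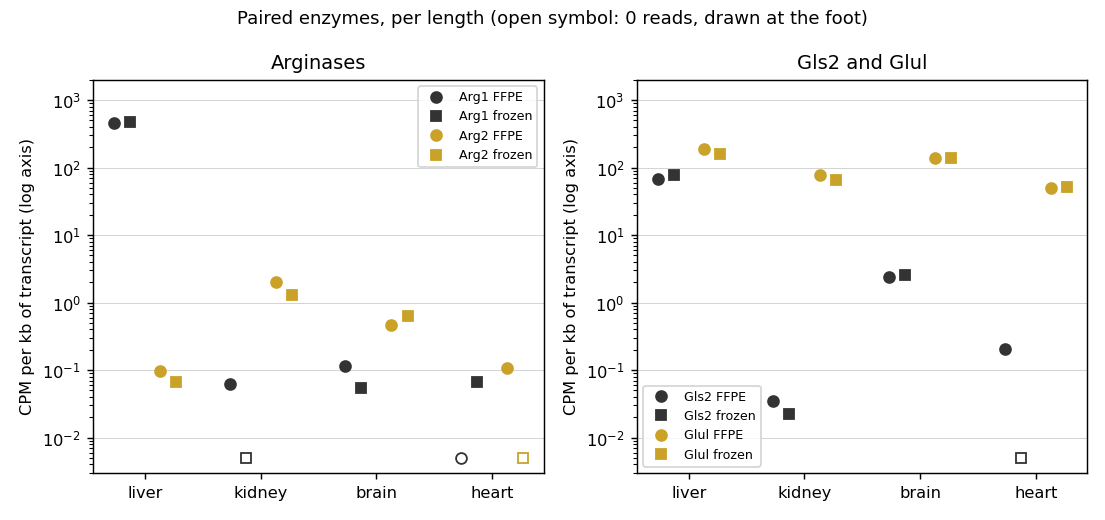
Levels of the arginases (left, Arg1 in dark and Arg2 in yellow) and of Gls2 and Glul, which split and make glutamine (right, Gls2 in dark and Glul in yellow), in CPM per kilobase of transcript (log axis) by organ. Circles are FFPE and squares are frozen libraries, with open symbols for 0 reads. Arg1 leads Arg2 in both liver libraries, and Glul stands above Gls2 in all 8 libraries, most closely in liver (171 against 73.5 CPM per kb on average).

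Compared per kilobase of transcript, Cps1 led in liver at 755 ± 87.3 CPM per kb (SD, n = 2 libraries). Ass1 followed at 640 ± 17.3 and Arg1 at 467 ± 7.4, then Glul at 171 ± 19.8, Asl at 124 ± 11.0, Otc at 119 ± 13.6 and Gls2 at 73.5 ± 6.9. The levels of Asl and Otc differed by less than their spread, and they changed places with the lengths of all exons. In kidney Ass1 led at 236 ± 114 CPM per kb, its 2 libraries lying at 155 in FFPE and 317 in frozen tissue, and Glul followed at 70.8 ± 8.9. In brain Glul led at 138 ± 0.9 CPM per kb, ahead of Ass1 at 5.30 ± 4.28, Gls2 at 2.46 ± 0.14 and Asl at 1.99 ± 0.58. In heart Glul led at 50.3 ± 1.5 CPM per kb, and the 8 other genes stood below 1 CPM per kb.

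The comparisons without liver divided the genes. Of the 9 genes, 2 (Ass1 and Asl) were higher in kidney than in brain and 4 (Cps1, Nags, Glul and Gls2) were lower, where 27.2% and 29.4% of tested genes were called in those directions. The count of lower genes was 2 under quantile normalization and under log2(CPM + 5). The Nags call rested on 3 and 5 brain reads against none in kidney. Against heart, 4 were higher in kidney (Ass1, Asl, Arg2 and Glul) and 0 were lower, also at unadjusted p under 0.05 and by voom, with 22.2% and 18.8% of all tested genes. Without frozen heart 1 was lower. Brain against heart gave 7 higher and 0 lower, also at unadjusted p under 0.05, with 33.3% and 24.7% of all tested genes. Voom gave 6 higher and 0 lower, and 4 were higher without frozen heart and under log2(CPM + 5). Otc and Arg1, with 1 to 3 reads in each brain library, were the 2 not called there by limma, and voom did not call Cps1 either. The limma call of Nags for brain against heart rested on 3 and 5 brain reads against none in heart. The 95% counting interval of that ratio ran from 0.928 upward, which includes no difference.

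**Figure D3:**
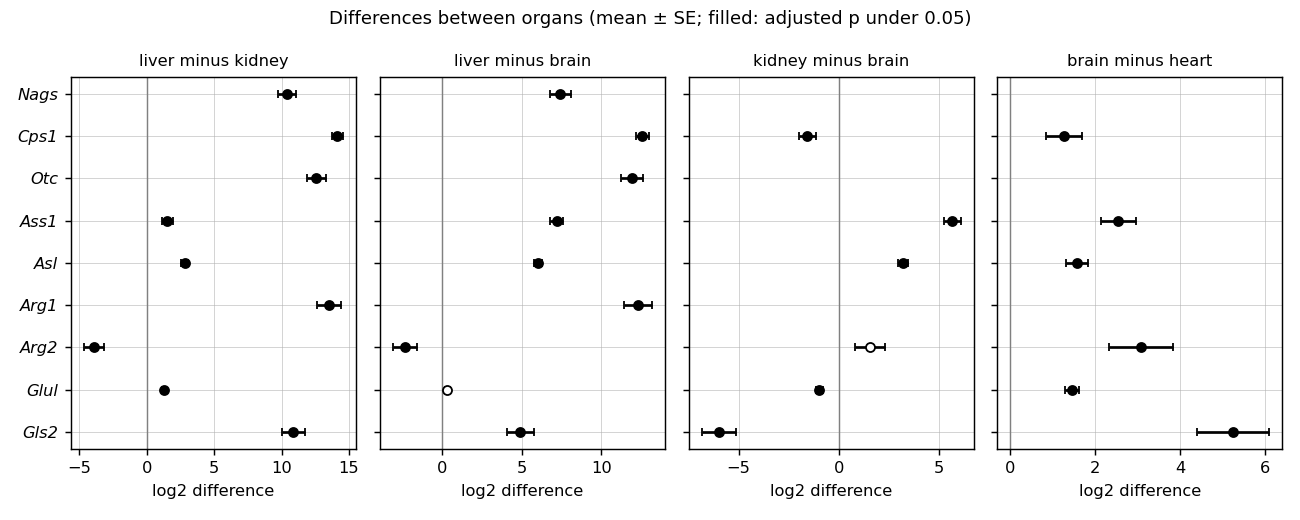
Log2 differences (points, with SE) for liver minus kidney, liver minus brain, kidney minus brain and brain minus heart, filled where the adjusted p was under 0.05 (limma). Genes with 3 reads or fewer in a library of both organs are left out, and values of genes with few reads in 1 organ depend on the 0.5 reads added. Arg2 stands below 0 in both liver comparisons, and Ass1 and Asl stand above 0 in kidney minus brain.

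FFPE tissue was compared with frozen tissue of the same organ. Fixation, embedding and wax removal go together in this comparison and cannot be told apart, nor from differences between tissue pieces. Of the 9 genes, 0 were higher and 0 were lower in FFPE tissue across organs (limma), where 1.2% and 2.18% of all tested genes were called in those directions. At an unadjusted p under 0.05, 1 gene was lower, Ass1, and voom called 0 and had 3 at that level. The share of all tested genes at that level is not given here. Fitted differences are given for the 3 genes above 3 reads in every library. They were -0.71 ± 0.29 for Ass1 (SE, adjusted p = 0.212), -0.27 ± 0.18 for Asl (0.427) and 0.11 ± 0.11 for Glul (0.615), beside a median of 0.07 over all genes. Without the deposited scaling factors that median was 0.54, Asl reversed to 0.20 and Glul reached 0.58 (adjusted p = 0.0280). Relative to the median Glul stood at 0.04 and Asl at -0.34 on both scales, which again holds by arithmetic.

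Within an organ 1 library stands on each side, so ratios have no replicate check and their intervals cover counting error only. In liver the FFPE to frozen ratio was 0.849 for Cps1 (0.838 to 0.859), 0.850 for Otc (0.810 to 0.892), 0.962 for Ass1 (0.939 to 0.986), 0.882 for Asl (0.842 to 0.924) and 0.978 for Arg1 (0.949 to 1.01). Nags stood lowest at 0.615 (0.537 to 0.704), and Gls2 was at 0.875 (0.825 to 0.927). Glul was at 1.18 (1.13 to 1.22). The 7 ratios of the liver-enriched genes lay below 1 on the deposited scale and that of Glul above it. Without the scaling factors only Nags stayed below 1 (0.752), and the others were at 1.04 for Cps1 and Otc, 1.18 for Ass1, 1.08 for Asl, 1.20 for Arg1, 1.07 for Gls2 and 1.44 for Glul. The direction of these liver ratios, apart from Nags and Glul, thus depended on the scaling.

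Ass1 had its lowest ratios outside liver, at 0.489 (0.473 to 0.505) in kidney and 0.273 (0.208 to 0.354) in brain, against 1.10 (0.496 to 2.53) in heart. Its pseudogene Gm5424 had ratios of 0.862 in liver, 0.558 in kidney, 0.345 in brain and 1.43 in heart. Asl was at 0.651 (0.590 to 0.717) in kidney and 0.656 (0.484 to 0.880) in brain. Without the scaling factors Asl was at 1.01 in kidney and 0.769 in brain, and Ass1 at 0.759 in kidney, 0.320 in brain and 1.83 in heart. On the deposited scale the proximal tubule markers were also lower in FFPE kidney, at 7025 CPM against 10510 CPM in frozen kidney. So were the distal and collecting duct markers, at 1884 CPM against 2374 CPM. The deposited values divide by scaling factors of 1.42 in FFPE kidney and 0.912 in frozen kidney. Without these factors both sums would be higher in FFPE kidney, so their direction depended on the scaling. The part of these markers in the kidney values was not tested. Arg2 in kidney was at 1.55 (0.998 to 2.45), and Glul at 1.19 (1.14 to 1.25) in kidney, 1.01 (0.979 to 1.04) in brain and 0.958 (0.894 to 1.03) in heart. Without the scaling factors Arg2 in kidney was at 2.40, and Glul at 1.85 in kidney, 1.18 in brain and 1.60 in heart.

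**Figure D4:**
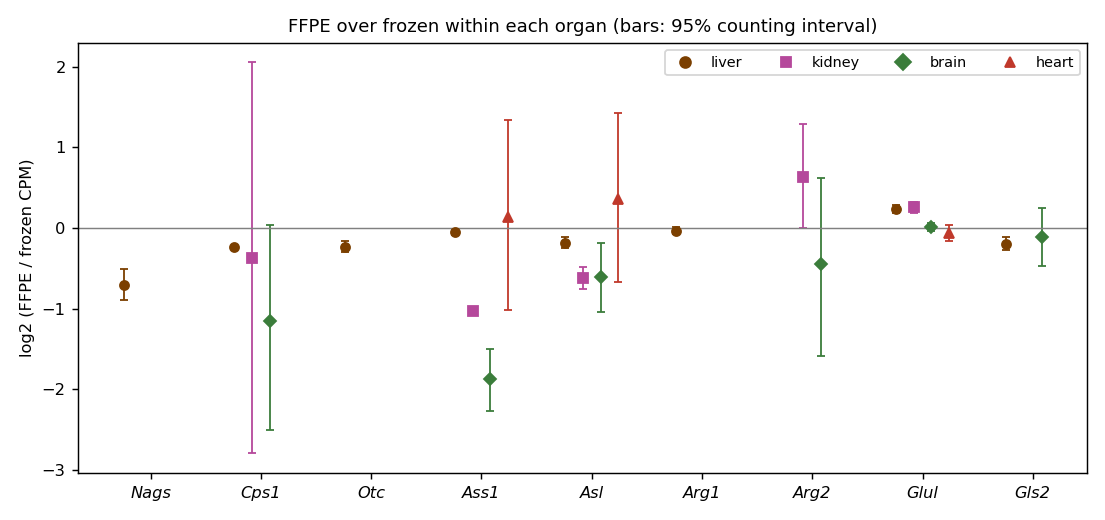
FFPE to frozen ratio of CPM, on the deposited scale and as log2, for each gene within liver, kidney, brain and heart, where both libraries of the organ held more than 3 reads. Bars are 95% counting intervals, with no replicate behind them. Ass1 lies lowest in brain and kidney, and Glul lies between -0.06 and 0.26 in every organ.

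Genes around the cycle were counted in lists taken from textbook pathways. Of 8 genes listed for mitochondrial carriers and bicarbonate supply, 6 were in the table and 5 were tested. The bicarbonate genes were sought as Ca5a and Ca5b and not found under these symbols. Only carriers were therefore tested, and bicarbonate supply was not examined. Of the 5 carriers, 3 were higher and 1 was lower in liver than in kidney (median 1.84, against -0.08 over all genes, of which 18% were higher and 23.2% lower). Slc25a15, the carrier that exchanges ornithine and citrulline, had 271 and 256 CPM in FFPE and frozen liver and 56.1 and 75.8 CPM in FFPE and frozen kidney. Slc25a13, the aspartate-glutamate carrier citrin, had 158 and 165 CPM in liver and 41.4 and 49.1 CPM in kidney. Its neuronal and muscle counterpart Slc25a12 was lower, with 9.65 and 9.22 CPM in liver and 30.9 and 29.3 CPM in kidney. The glutamate carrier Slc25a22 had 78.6 and 68.8 CPM in liver and 5.66 and 8.54 CPM in kidney.

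Of 20 tested glutamate enzymes (21 listed), 11 were higher and 1 was lower in liver than in kidney, with a median of 0.66, beside 18% and 23.2% of all tested genes. The aminotransferases Gpt and Gpt2, which move amino groups between alanine and glutamate, differed by 4.66 ± 0.21 and 4.07 ± 0.15, and Oat, which links ornithine to glutamate, by 2.79 ± 0.24 (log2 difference, SE). The split became 7 higher and 2 lower under quantile normalization, beside 2498 and 3476 of all 15819 tested genes. Without the deposited scaling factors it was 6 higher and 3 lower, beside 1613 and 4813 of all 15819. The lower count was 2 without frozen kidney and under robust variance, and 3 without frozen liver. Against brain, 13 were higher and 6 lower in liver, with a median of 1.07 beside -0.11 over all genes, of which 30.8% were higher and 36.3% lower. The share of the list that was lower is near that of all genes. Gad1 and Gad2, which make the transmitter GABA, had no read in liver, and had 115 and 102 CPM in FFPE brain and 181 and 257 CPM in frozen brain. Asns, which uses glutamine to make asparagine, had 0.482 and 1.73 CPM in FFPE and frozen liver, and 26.5 and 25.3 CPM in FFPE and frozen brain.

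Of 15 tested carriers of glutamine, glutamate and ammonia (16 listed), 4 were higher and 7 lower in liver than in kidney (median -1.09), and 4 were higher and 8 lower than in brain (median -2.27). Of all tested genes 18% and 23.2% were called against kidney and 30.8% and 36.3% against brain, so the higher counts are near the background. Slc38a4 had 919 and 739 CPM in FFPE and frozen liver and 1.40 and 0.644 CPM in FFPE and frozen kidney. Slc38a3, the system N glutamine carrier, had 429 and 513 CPM in liver and 11.1 and 12.6 CPM in kidney. The ammonia channel Rhcg, known from the collecting duct, had no read in liver and 37.6 and 35.3 CPM in FFPE and frozen kidney. The glutamate carrier Slc1a1 had 0.207 and 0.576 CPM in liver and 113 and 152 CPM in kidney. Slc1a3, an astrocyte glutamate carrier, had 0.344 and 0.288 CPM in FFPE and frozen liver and 160 and 220 CPM in FFPE and frozen brain.

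Of 15 genes of arginine and ornithine use, 3 were higher and 5 lower in liver than in kidney, with a median of -0.92. Of all tested genes 18% and 23.2% were called, so the higher count is near the background, and the lower count was 3 under log2(CPM + 5). Gatm, which makes the creatine precursor from arginine, had 6.41 and 9.50 CPM in FFPE and frozen liver and 186 and 264 CPM in FFPE and frozen kidney. Slc7a2, a carrier of cationic amino acids, had 784 and 436 CPM in liver and 8.29 and 4.97 CPM in kidney. Agmat, named for the hydrolysis of agmatine, had 48.6 and 69.0 CPM in liver and 0.453 and 0.293 CPM in kidney. Nos2, an inducible nitric oxide synthase, had no read in liver and 0.861 and 0.936 CPM in kidney. Against brain 5 were higher and 7 lower in liver (30.8% and 36.3% of all tested genes). Without the scaling factors 3 were higher, beside 2555 of all 15819 tested genes. The list was led in size by Nos1, the neuronal synthase, at 0.0689 and 0 CPM in liver and 19.8 and 27.9 CPM in brain.

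Of 12 regulators, 7 were higher and 0 lower in liver than in kidney (median 1.12), beside 18% and 23.2% of all tested genes. At unadjusted p under 0.05, 8 were higher and 1 was lower, a level for which the share of all tested genes is not given here. Voom called 8 higher and 0 lower. Quantile normalization and removal of the scaling factors each gave 1 lower, beside 3476 and 4813 of all 15819 tested genes. Leaving out either heart library also gave 1 lower. Cebpa, a hepatocyte transcription factor that acts on cycle genes, differed by 3.92 ± 0.30 (log2 difference, SE), and the glucagon receptor Gcgr by 3.65 ± 0.52. Foxa2 had 11.4 and 9.89 CPM in FFPE and frozen liver, and 1 read and 0 reads in FFPE and frozen kidney. In kidney against brain, 8 regulators were higher and 0 lower, also at unadjusted p under 0.05 and by voom, beside 27.2% and 29.4% of all tested genes. Hnf4a, a nuclear receptor of liver and proximal tubule, had 334 and 401 CPM in FFPE and frozen kidney, against 0.0558 and 0.317 CPM in FFPE and frozen brain. It had 507 and 442 CPM in FFPE and frozen liver, and liver minus kidney was 0.37 ± 0.73 (adjusted p = 0.721). That SE is too wide to show equal levels. Cps1, Otc and Arg1 held between 0 and 4 reads in each kidney library, and a link between their levels and Hnf4a was not tested.

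Liver zone genes covered both ends of the lobule. Of 5 periportal genes, where the cycle runs, 4 were higher in liver than in kidney, with a median of 10.75, beside 18% of all tested genes for this and the next list. Hal, which starts histidine breakdown, had 262 and 289 CPM in FFPE and frozen liver, and 0.136 and 0 CPM in FFPE and frozen kidney. Sds, which breaks down serine, had 72.6 and 63.9 CPM in liver and no read in kidney. Of 8 pericentral genes, where Glul marks the cells, 7 were higher, with a median of 3.45. Cyp1a2, a drug-metabolising cytochrome, had 406 and 356 CPM in FFPE and frozen liver, with 1 read and 0 reads in kidney. The glutamate carrier Slc1a2 had 228 and 127 CPM in FFPE and frozen liver, and 5.30 and 5.21 CPM in FFPE and frozen kidney. Slc1a2 is also the main astrocyte glutamate carrier, and had 1634 and 1258 CPM in FFPE and frozen brain, where Glul was the leading gene of the 9. In the FFPE comparison 0 of the 77 tested genes of these 7 lists were called (limma), near the 1.2% higher and 2.18% lower of all tested genes. At unadjusted p under 0.05, 8 of the 77 were higher and 9 lower. The share of all tested genes at that level is not given here, so these counts cannot be set against a background. Voom called 1 higher and 6 lower of the 77, beside 572 higher and 835 lower of all 15819 tested genes.

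Patterns most like each gene were sought among all tested genes, by the root mean square of differences in log2 CPM over the 8 libraries after each gene was centred. Otc was nearest to Cyp1a2 (0.30), Apof (0.42) and Mug2 (0.44), and Arg1 to the same 3 genes at 0.57, 0.63 and 0.63. Cps1 was nearest to Cyp2c70 (0.55), Cyp2c29 (0.57) and Mup20 (0.58), and Nags to Trf (0.57), Klb (0.74) and Cyp3a13 (0.79). Otc, Arg1 and Nags held between 0 and 5 reads in each library outside liver, where log2 values depend on the 0.5 reads added. Their distances therefore say little of likeness outside liver, or within the zones of liver. Cps1 held 2 to 4 reads in each kidney and heart library, and Gls2 held 0 to 7. Arg2 held 0 to 2 reads in each liver and heart library. The same limit holds for the distances of these genes in those organs. Ass1 was nearest to Gm5424 (0.22), Aass (0.71) and Glyctk (0.73), and Asl to Sardh (0.58), 1810064F22Rik (0.60) and Ido2 (0.63). Arg2 was nearest to Fras1 (0.46), Frem1 (0.55) and Zmynd10 (0.56). Glul, whose level varied little, had 6029 genes within 1 log2 unit, led by Vcpip1 (0.16), Sos1 (0.17) and Acp2 (0.18). Gls2 had none within 1 log2 unit. Its nearest were Tfr2 (1.03), Slc30a10 (1.05) and Onecut2 (1.12).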

How the data were processed

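The authors deposited 1 table of log2 CPM for 27179 genes, per the file itself. HISAT2, featureCounts, limma and mm10 are named in the submitters' processing notes. What annotation, strand setting, read filters and scaling were used is not given there. The deposited log2 values came back as whole reads for 100% of values (within 1e-06) with 0.5 reads added and library scaling factors of 0.50 to 1.76.

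limma 3.58.1 (R 4.3.3) was fitted on the deposited log2 values of all 8 libraries, with terms for organ and preservation and a mean-variance trend. A gene entered when at least 2 libraries exceeded 1 CPM (a log2 value above 0), which 15819 did. Residual degrees of freedom were 3 and prior degrees 5.35. Calls were made where the Benjamini-Hochberg adjusted p, over all tested genes, was under 0.05. Each group holds 1 library. Organ pairs rest on 2 libraries per organ, and ratios within an organ have no test. The fit was tested on simulated data that held differences between FFPE and frozen tissue only, in genes well above the floor. This did not test the organ pairs or genes near the floor.

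Intervals are exact at 95% and, like the floor of 3 reads, cover counting error only, since reads are not independent molecules. Lengths come from the principal transcript in GENCODE M21 (GRCm38), transcript matches from BLAST+ 2.17.0 and upstream windows from RefSeq. RefSeq windows were used for 4 of the 9 genes. The 9 genes and the pathway lists were chosen with earlier results of these data known. From each list up to 4 genes with the largest absolute difference in the comparison described were named, and 3 genes of most similar pattern per gene. Gm5424 was described across all organs after its values were seen. A gene of the glutamate enzyme list is counted there and not reported here by itself. Alternatives were 2 other filters, quantile normalization, median centring, log2(CPM + 5), no trend, robust variance, voom on whole reads and leaving out each library. Removal of the scaling factors from the tests, the ratios within an organ without those factors, the summed Ass1 and Gm5424 reads, and all alternatives for the lists were added after the data were seen.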

Additional observations from a re-analysis of the deposited data

Results flagged for a closer look

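Gls2 stood out because its FFPE library lay on opposite sides of the frozen library in heart and liver. In heart FFPE tissue had 7 reads and frozen tissue had 0, which is at least 1.82-fold higher in FFPE tissue with 3 reads as the floor. In liver the FFPE to frozen ratio was 0.875, from 2561 FFPE reads and 2101 frozen reads. Without the deposited scaling factors the liver ratio was 1.07 and the heart ratio at least 3.02, so the libraries then lay on the same side. The difference between the organs was not tested, since each organ gives 1 library a side, and the heart value rests on 7 reads.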

How the results depend on the processing

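The organ term pairs each FFPE library with the frozen library of its organ, and the labels give no replicate numbers for a further block. Leaving out each library left 347 of 368 single values on their side of the threshold and direction, with 20 weaker and 1 reversed. The other alternatives kept 391 of 416, with 16 weaker, 5 stronger and 4 reversed. The 4 reversals were Cps1 for kidney minus heart (0.50) and Asl for FFPE minus frozen (0.20), both without the deposited scaling factors, and Glul for liver minus brain without them (-0.64) and under quantile normalization (-0.93). Cps1 for kidney minus heart also reversed without FFPE heart, its values without 1 library each spanning -0.84 to 0.21.

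Members higher in FFPE tissue became 1 without the scaling factors, where 3652 of all 15819 tested genes were higher. Members lower in liver than in kidney became 0 under the stricter filter. Members lower in liver than in brain became 0 with no filter, with the stricter filter and under log2(CPM + 5). Without the scaling factors they became 2, where 8502 of all 15819 tested genes were lower. Their count ranged from 0 to 1 when 1 library was left out (0 without frozen brain, FFPE liver or frozen liver). The stricter filter, log2 CPM above 2, does not hold Arg2 among its genes. Members lower in kidney than in brain became 2 under quantile normalization and under log2(CPM + 5). Members lower in kidney than in heart ranged from 0 to 1 (1 without frozen heart). Members higher in brain than in heart became 4 under log2(CPM + 5) and ranged from 4 to 7 (4 without frozen heart). Apart from the stricter filter, where fewer genes are tested, the cause was not tested. Of 408 list counts 394 moved by less than 1.5 times, and of 815 values of named list genes 813 kept their call. The 2 that did not were Nos2 under log2(CPM + 5) (adjusted p = 0.0623) and Cyp2e1 under quantile normalization (adjusted p = 0.0581), both for liver minus kidney.

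Depth limits genes near the floor. Arg1 and Otc outside liver, Nags in kidney and heart, Gls2 in kidney and heart and Arg2 in liver and heart rest on at most 7 reads per library, so their order there was not detectable at this depth. Each organ gives 2 libraries that differ in preservation.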
